A study of Bos taurus with 7 samples.

Results

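The 6 genes described here, *NOBOX*, *FIGLA*, *SOHLH1*, *SOHLH2*, *LHX8* and *TAF4B*, encode the transcription factors best known for their part in early oocyte growth, together with an oocyte- and gonad-enriched subunit of the general transcription machinery. The set is defined by gene name and not by a measured value, and holds 6 of the 23704 genes to which transcripts of the files could be assigned. All 6 were found. Levels were compared between bovine primary follicles (PF), which have a complete single layer of cuboidal granulosa cells around the oocyte, and secondary follicles (SF), in which granulosa cells form several layers. Each library held RNA of a pool of whole follicles, isolated mechanically from abattoir ovaries of Holstein Friesian dairy cows and size-sorted on strainers, so oocyte and granulosa cell RNA were measured together. After isolation all follicles had a short recovery in medium that, by the study's methods, held FSH, insulin, transferrin and selenite. No other treatment is described, and no genotype or treatment separates the groups. By the study's methods the cows were in the second year of life, and the labels give no age. There were 4 PF and 3 SF libraries, and PF replicate 4 was left out of the main comparison.

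NOBOX is a homeodomain protein and LHX8 a LIM-homeodomain protein. FIGLA, SOHLH1 and SOHLH2 are basic helix-loop-helix proteins, which bind DNA as dimers. In mice all 5 are made in oocytes around the time the first follicles form, and loss of any of them leads to the loss of oocytes around the stage at which primordial follicles form or start to grow. FIGLA drives the genes of the zona pellucida, the coat of the oocyte, and NOBOX drives *GDF9* and other genes of growing oocytes. TAF4B is a variant subunit of TFIID, the complex that recruits RNA polymerase II to promoters. In mice it is found in oocytes and in granulosa cells, so it is the member for which a whole follicle holds a known source besides the oocyte.

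The libraries held 18788105 to 23764615 estimated counts, and 12188 to 13034 genes reached 1 TPM (a level per transcript length, as a share of a fixed total). A pair of libraries stood apart. PF replicate 4 held 6193 TPM of 8 stromal fibroblast markers summed, against 427 to 621 TPM in PF replicates 1 to 3 and 239 to 542 TPM in SF. *COL1A2*, a fibroblast collagen, was at 2762 TPM there and at 4.27 to 21.3 TPM in the other 6 libraries. *DCN*, the largest part of the sum in the other libraries, went the other way. It was at 168 TPM in PF replicate 4, against 390 to 573 TPM in PF replicates 1 to 3. *FBLN1*, at 11.6 TPM, lay inside their range of 7.79 to 16.4 TPM. PF replicate 4 also held 181 TPM of the zona genes *ZP2*, *ZP3* and *ZP4*, against 1229 to 2033 TPM in the other PF libraries. Its Spearman correlation across genes was 0.776 to 0.812 with PF replicates 1 to 3 and 0.842 to 0.867 with SF, a description in which genes are not independent replicates. SF replicate 3 held the fewest zona transcripts, 95.8 TPM, against 1105 TPM in SF replicate 1 and 844 TPM in SF replicate 2. Results that rest on these libraries are given with and without them. A further split ran across the groups. Each library's name carries a number, and 3 of them, PF replicates 1 and 2 with SF replicate 1, have one under 40. PF replicates 3 and 4 and SF replicates 2 and 3 have one over 40. The labels do not say what the number stands for.

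Of the 6 members, 5 were lower in SF than in PF, by 1.89 to 3.26 on the log2 scale, and *TAF4B* did not pass the test. The fall was largest for *SOHLH1* and smallest for *FIGLA*. For each of the 5, all 3 SF libraries lay below PF replicates 1 to 3 in TPM, an order that 18.5% of the 15056 genes tested also showed. PF replicate 4 did not share the high PF levels. It lay within the SF range for each of the 5.

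*NOBOX* reached 148, 79.0 and 42.9 TPM in PF replicates 1 to 3, and 14.4, 15.9 and 4.50 TPM in SF replicates 1 to 3. The groups did not overlap, and PF replicate 4, at 7.68 TPM, fell inside the SF range. In DESeq2 the fold change of SF versus PF was -2.83 ± 0.56 (log2, SE), with an adjusted p of 2.9e-05 over all genes tested.

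*FIGLA* was the most abundant member in PF, with 774, 759 and 365 TPM in replicates 1 to 3. SF held 279, 140.5 and 48.4 TPM. The lowest of these PF libraries and the highest SF library were thus nearer to each other, as a ratio, than for *NOBOX*. The log2 fold change was -1.89 ± 0.60 (DESeq2 adjusted p = 0.0147). PF replicate 4 held 77.5 TPM, between SF replicates 2 and 3. The *FIGLA* call was lost without PF replicate 1 (DESeq2 adjusted p = 0.082), without PF replicate 2 (0.0874) and without SF replicate 2 (0.093).

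The 2 partners of the SOHLH family differed in which PF library was highest. *SOHLH1* reached 81.3, 198 and 82.7 TPM in PF replicates 1 to 3, against 14.6, 17.5 and 3.80 TPM in SF. *SOHLH2* reached 300.1, 205 and 80.5 TPM in PF, against 38.3, 38.3 and 10.6 TPM in SF. Neither gene had overlapping groups. The log2 fold changes were -3.26 ± 0.62 for *SOHLH1* (DESeq2 adjusted p = 1.3e-05) and -2.62 ± 0.58 for *SOHLH2* (0.000247). PF replicate 4 held 10.4 TPM of *SOHLH1* and 18.6 TPM of *SOHLH2*, inside the SF range of each.

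*LHX8* had the narrowest spread between PF replicates 1 and 2, at 144 and 146 TPM, with 71.3 TPM in replicate 3. It fell to 18.0, 28.3 and 5.76 TPM in SF, and PF replicate 4 held 12.3 TPM. Its log2 fold change was -2.71 ± 0.55 (DESeq2 adjusted p = 5.4e-05).

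**Figure D1:**
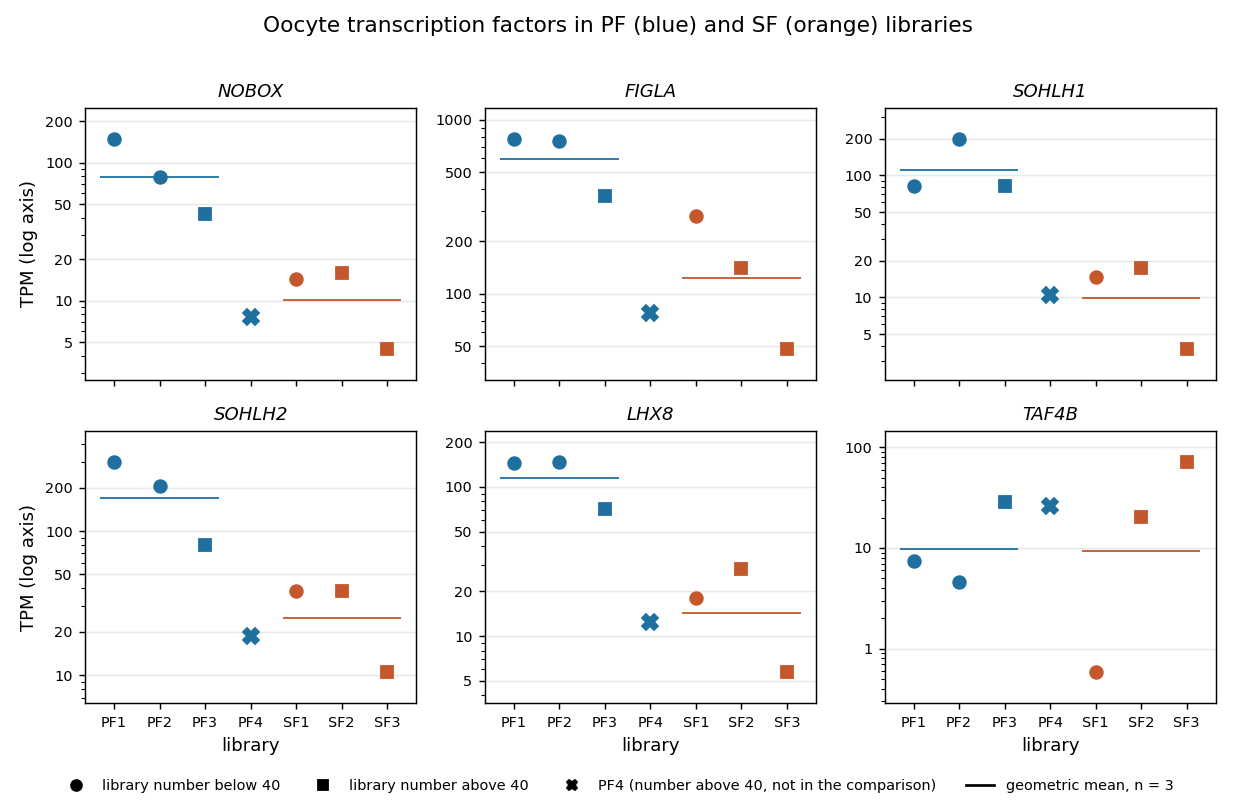
TPM of the 6 members in each of the 7 libraries (log axis), with PF in blue, SF in orange, crosses for PF replicate 4, circles and squares for library numbers below and above 40, and lines for the geometric mean of 3 libraries. For 5 members all SF points lie below PF replicates 1 to 3, while *TAF4B* runs from 0.589 to 70.6 TPM with overlapping groups.

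Against these 5, 11.0% of all 15056 genes tested were called lower in SF and 8.14% were called higher. As means over 3 libraries, *NOBOX* was 90.0 ± 53.5 TPM (SD) in PF and 11.6 ± 6.21 in SF. For *FIGLA* the means were 633 ± 232 and 156 ± 116, for *SOHLH1* 121 ± 67.0 and 12.0 ± 7.22, for *SOHLH2* 195 ± 110.1 and 29.1 ± 16.0, and for *LHX8* 121 ± 42.6 and 17.3 ± 11.3. SF replicate 3 was the lowest of the SF libraries for each of the 5, and PF replicate 3 was the lowest of PF replicates 1 to 3 for 4 of them, *SOHLH1* being slightly lower in PF replicate 1. With PF replicate 4 kept, the test called 3 members lower, beside 3.19% of all genes. These were *NOBOX*, *SOHLH1* and *LHX8*, with adjusted p from DESeq2 of 0.045, 0.021 and 0.047, while *SOHLH2* (0.0706) and *FIGLA* (0.242) no longer passed. The quasi-likelihood test of edgeR called no gene at all in the main comparison, with 3844 genes at an unadjusted p under 0.05 and adjusted p of 0.052 to 0.095 for the 5 members.

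*TAF4B* had the widest range over libraries of the 6 members. PF replicates 1 to 4 held 7.38, 4.56, 28.3 and 26.0 TPM, and SF replicates 1 to 3 held 0.589, 20.1 and 70.6 TPM. The lowest and the highest library of the series were both SF, so the SF range enclosed that of PF. The log2 fold change was 1.25 ± 1.24 (DESeq2 adjusted p = 0.519), with a 95% interval from -1.17 to 3.68 that covers a fall as well as a large rise. The estimated counts behind these values were 27 in SF replicate 1 and 182 to 2767 in the others. The order followed the library number rather than the follicle stage. The 3 libraries numbered below 40 lay at 0.589 to 7.38 TPM and the 4 numbered above 40 at 20.1 to 70.6 TPM, without overlap, as did 5.39% of all genes in the same direction. Within the libraries below 40, SF minus PF was -2.10 on the log2(TPM + 1) scale, and within those above 40 it was 0.41 without PF replicate 4 and 0.47 with it. For the other 5 members SF was lower within both classes, by 1.45 to 3.04 below 40 and by 1.94 to 3.15 above 40 without PF replicate 4. With that library kept, SF was lower by 0.91 to 1.71 above 40. With 1 or 2 libraries of a stage in each class, these are values without a test. In a fit with the number class as a covariate the *TAF4B* fold change was -1.20 (DESeq2 adjusted p = 0.39), and without SF replicate 3 it was -0.51 (0.868).

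The levels of zona genes and of granulosa cell markers were read beside these falls. In a whole follicle, fewer oocytes per granulosa cell and less of a transcript per oocyte cannot be told apart. Of 8 granulosa cell markers, 5 were higher in SF and none lower, and their summed level was 736 to 1497 TPM in PF replicates 1 to 3 and 2041 to 2745 TPM in SF, with 1085 TPM in PF replicate 4. Their part in the members' falls was not tested. Summed TPM of the zona genes was 1958, 2033 and 1229 in PF replicates 1 to 3. *ZP3*, which encodes a protein of the oocyte coat, made up 81.0% to 93.3% of it in every library. By DESeq2 the 3 zona genes did not pass the test, with log2 fold changes of -0.59 ± 0.70 for *ZP2* (adjusted p = 0.609), -1.37 ± 0.72 for *ZP3* (0.169) and -0.57 ± 0.78 for *ZP4* (0.662). Without SF replicate 3, *ZP3* was called lower, at -0.83 ± 0.28 (DESeq2 adjusted p = 0.0254), and *ZP2* and *ZP4* were not. Each of the 5 members thus had a fold change further below 0 than any zona gene, though the interval of *ZP3*, from -2.77 to 0.03, covers the fold change of *FIGLA* and of 2 more members.

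Each member was therefore set against the zona genes of the same library. As FIGLA drives zona genes, this reference is not independent of that member, and the part of this in the ratios was not tested. *NOBOX* amounted to 7.57%, 3.89% and 3.49% of the zona TPM in PF replicates 1 to 3, and to 1.3%, 1.89% and 4.69% in SF. *FIGLA* amounted to 39.5%, 37.3% and 29.7% in PF, and to 25.3%, 16.6% and 50.6% in SF. In both genes SF replicates 1 and 2 lay below every PF library, and SF replicate 3 lay above at least 2 of PF replicates 1 to 3.

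*SOHLH1* was the member whose groups stayed apart on this scale. It amounted to 4.15%, 9.74% and 6.73% of zona TPM in PF, and to 1.32%, 2.07% and 3.97% in SF. Of the other oocyte genes, *BMP15*, *ZAR1*, *MOS*, *H1-8* and *DDX4* were also lower in every SF library on this scale. The share of all genes with such an order was not computed. *SOHLH2* amounted to 15.3%, 10.1% and 6.55% in PF, and to 3.47%, 4.54% and 11.0% in SF. *LHX8* held a steady 7.36%, 7.18% and 5.80% in PF, against 1.63%, 3.35% and 6.01% in SF. Here too SF replicates 1 and 2 were below all PF libraries for both genes, and SF replicate 3 was inside the PF range.

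PF replicate 4, low in every one of the 5 members in TPM, was not low on this scale. It held 4.25% for *NOBOX*, 42.9% for *FIGLA*, 5.75% for *SOHLH1*, 10.3% for *SOHLH2* and 6.83% for *LHX8*. For 4 of these genes that is within the range of PF replicates 1 to 3, and for *FIGLA* it is above it.

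**Figure D2:**
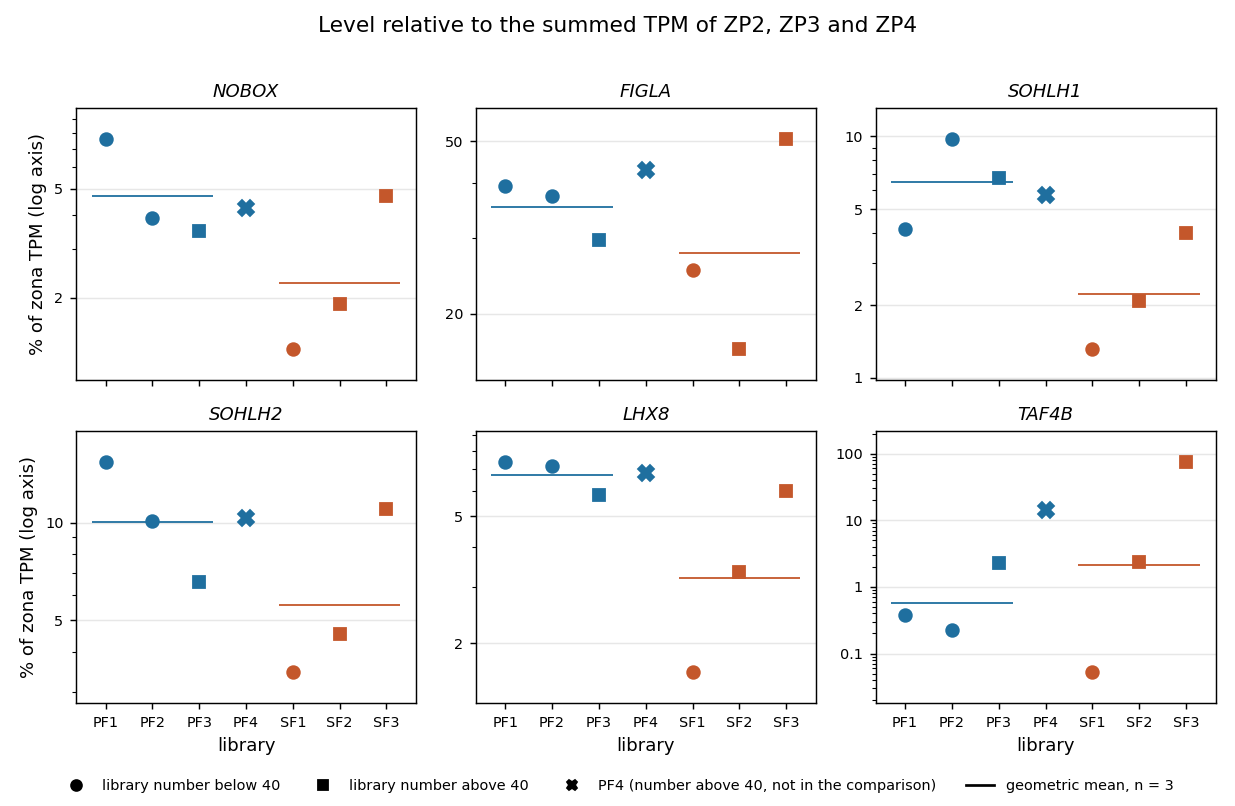
Each member's TPM as a percent of the summed TPM of *ZP2*, *ZP3* and *ZP4* in the same library (log axis, a scale per panel), with symbols as in the plot of TPM. SF replicates 1 and 2 are below all PF libraries for 5 members, and SF replicate 3 lies inside or above the PF range for 4 of those 5, with *SOHLH1* the exception.

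In the exact two-sided permutation test of the log2 ratio, 3 libraries against 3 can give no p below 0.1. *SOHLH1* reached that limit, with a mean difference SF minus PF of -1.55. *LHX8* differed by -1.08 (exact p = 0.2), *NOBOX* by -1.05 (0.3), *SOHLH2* by -0.85 (0.3) and *FIGLA* by -0.35 (0.6). With PF replicate 4 included, 7 libraries allow a smallest p of 0.0286. *SOHLH1*, lower in all 3 SF than in all 4 PF libraries, then differed by -1.50 with that p, *LHX8* by -1.08 (exact p = 0.0571) and the other members had p of 0.171 to 0.8. The oocyte genes *ZAR1* (-1.39) and *DDX4* (-2.45) reached the same exact p of 0.0286. These p are not adjusted for the 6 members tested. In libraries numbered below 40 the ratio differed by -2.06 for *NOBOX*, -0.60 for *FIGLA*, -2.265 for *SOHLH1*, -1.84 for *SOHLH2* and -2.16 for *LHX8*. Above 40, without PF replicate 4, the differences were -0.23, -0.03, -1.23, 0.11 and -0.37 in the same order. With that library kept they were -0.37, -0.30, -1.12, -0.22 and -0.49. Below 40 there is a single SF library, so these values carry no test.

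The same question was put to the counts, with each library scaled to its zona counts in place of all genes. In DESeq2 no member was called lower out of the 5 that received a p, beside 0.268% of all genes. None of the 5 had an unadjusted p under 0.05 there, the lowest being 0.131 for *SOHLH1*, and edgeR with the same scaling called 0 members. The log2 fold changes were -1.53 ± 1.02 for *SOHLH1* (adjusted p = 0.203), -0.98 ± 1.03 for *NOBOX* (0.428), -0.95 ± 1.00 for *LHX8* (0.430), -0.80 ± 1.02 for *SOHLH2* (0.515) and -0.24 ± 0.99 for *FIGLA* (0.845). The median of all genes stood at 2.39 on this scale, and the intervals are wide. That of *NOBOX* ran from -2.99 to 1.04 and that of *FIGLA* from -2.17 to 1.69, so neither an equal level per zona transcript nor a further fall is separated by these libraries. *TAF4B* was at 4.66 ± 1.61, a value for which DESeq2 gave no p because it treated a count as an outlier, and for which edgeR gave an adjusted p of 0.055.

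These values turned on SF replicate 3, whose zona genes summed to 1756 estimated counts, against 14973 to 36885 in the other 5 libraries. Without it, 4 members were called lower relative to the zona genes, beside 2.74% of all genes. *SOHLH1* fell by 2.05 ± 0.53 (DESeq2 adjusted p = 0.0017), *NOBOX* by 1.69 ± 0.51 (0.0088), *LHX8* by 1.49 ± 0.45 (0.0087) and *SOHLH2* by 1.45 ± 0.49 (0.020). *FIGLA*, at -0.78 ± 0.37 (0.112), did not pass, and *TAF4B* was at 0.29 ± 1.42 (0.914). With PF replicate 4 kept and SF replicate 3 left out, the fold changes of the 5 were -0.85 to -1.98 and none was called, with an adjusted p of 1.0 for each. That alternative, which has 4 PF and 2 SF libraries, was chosen after seeing the data.

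**Figure D3:**
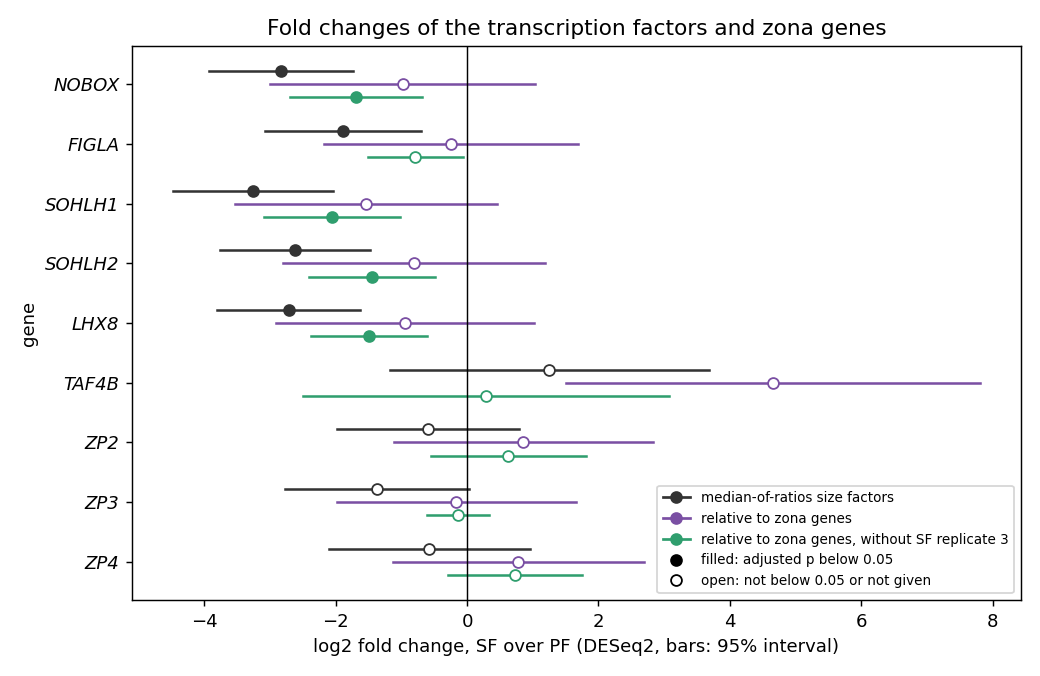
Log2 fold change of SF versus PF with its 95% interval for the 6 members and 3 zona genes in the main DESeq2 fit, in the fit scaled to zona counts, and in that fit without SF replicate 3. The main intervals of *NOBOX*, *FIGLA*, *SOHLH1*, *SOHLH2* and *LHX8* lie below 0, all 5 cross 0 when scaled to zona counts, and all 5 lie below 0 again without SF replicate 3, where *FIGLA* fails after adjustment.

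TPM allows levels of different genes to be compared per length. The order of the 6 members by TPM differed between every pair of libraries. *FIGLA* was highest in 6 of 7 libraries, with 53.2%, 54.5% and 54.4% of the summed member TPM in PF replicates 1 to 3, 50.8% in PF replicate 4, and 76.5%, 53.9% and 33.7% in SF. In SF replicate 3 *TAF4B* was highest, with 49.2%. Elsewhere *TAF4B* took 0.161% to 17.0%. *SOHLH2* was the member next below *FIGLA* in PF replicates 1 and 2 and in every SF library. In PF replicate 3 *SOHLH1*, *SOHLH2* and *LHX8* all lay at 71.3 to 82.7 TPM. Among all genes of a library, 148 to 387 stood above *FIGLA* in PF replicates 1 to 3 and 557 to 2877 in SF. For *TAF4B* the number ran from 2104 in SF replicate 3 to 13577 in SF replicate 1.

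**Figure D4:**
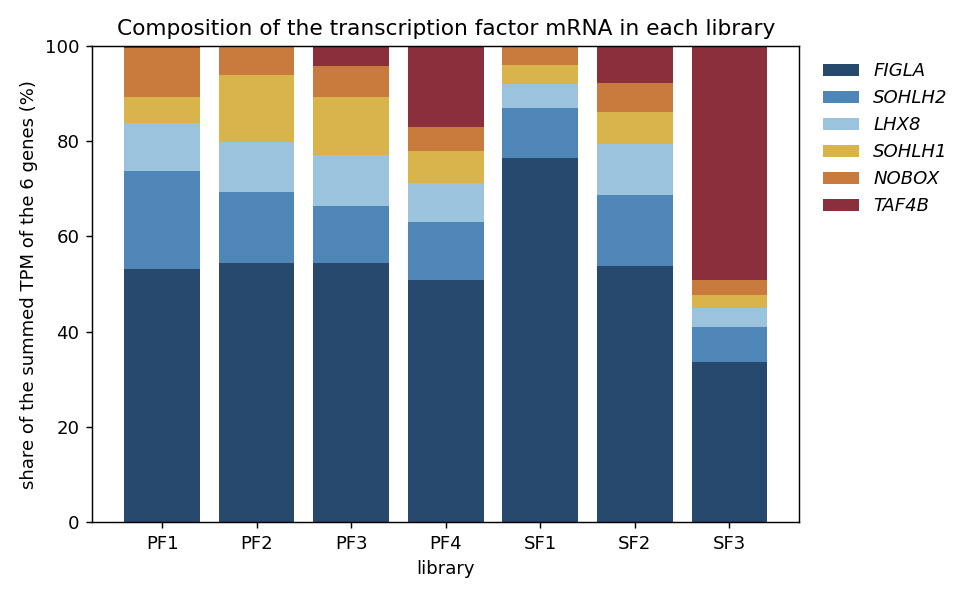
Share of each member in the summed TPM of the 6 members, stacked to 100% for each library. *FIGLA* holds 33.7% to 76.5%, and *TAF4B* grows from 0.161% in SF replicate 1 to 49.2% in SF replicate 3.

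Among the 5 oocyte factors the ratios between members differed less between stages than the levels did. *SOHLH2* was 2.08, 1.41 and 1.13 times *LHX8* in PF replicates 1 to 3 and 2.13, 1.36 and 1.83 times *LHX8* in SF, a difference of 0.23 on the log2 scale (exact permutation p = 0.6). The widest difference among the 5 oocyte factors was between *FIGLA* and *SOHLH1*. That ratio was 9.53, 3.83 and 4.41 in PF and 19.1, 8.02 and 12.7 in SF, with overlapping groups and a log2 difference of 1.20 (exact permutation p = 0.2). Over all 15 pairs of members, the groups overlapped in each, and none reached the smallest possible p of 0.1.

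A single transcript model carried the reads of *NOBOX*, *SOHLH1*, *SOHLH2* and *TAF4B*. *FIGLA* had 2 models, of 687 and 657 bases. The 687-base curated model took 63.7% to 71.7% of the gene's TPM in PF replicates 1 to 3 and 59.0% to 65.3% in SF. *LHX8* had 2 predicted models, of which that of 1952 bases took 83.2% to 98.0% in PF replicates 1 to 3 and 91.6% to 93.7% in SF. Neither gene changed its leading model between stages. The files' transcripts include models that matched no gene, so a gene's level can be incomplete.

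Genes with roles near those of the members were taken from lists. Of 14 other oocyte genes, 10 were lower in SF, none higher and 4 did not pass, with a median log2 fold change of -1.89, where the median of all genes was 0.02 and that of the members -2.66. *BMP15*, an oocyte growth factor that acts on granulosa cells, fell by 3.48 ± 0.74 (DESeq2 adjusted p = 0.00011), from 669, 420 and 124 TPM in PF replicates 1 to 3 to 48.6, 42.7 and 6.79 TPM in SF. *GDF9*, its partner, fell by 1.62 ± 0.51 (0.013). The chromatin protein *NPM2*, the maternal-effect gene *OOEP* and the germ cell RNA-binding protein *DAZL* fell by 2.06 ± 0.55 (0.0025), 2.08 ± 0.55 (0.0027) and 1.74 ± 0.48 (0.0042). The linker histone *H1-8* (-1.83 ± 0.75, adjusted p = 0.066), *TLE6* (-1.94 ± 0.80, 0.067) and *PADI6* (-1.24 ± 0.77, 0.26) did not pass. *H1-8* was called lower without SF replicate 3 (DESeq2 adjusted p = 0.00102), without SF replicate 1 (0.019) and when genes under 10 counts in most libraries were filtered out (0.0492), and *TLE6* without SF replicate 2 (0.0153). Relative to the zona genes, 0 of the 14 were called in the main scaling (median -0.39), against a median of -0.95 for the 5 members with a p. Without SF replicate 3, 5 of the 14 were called lower (median -0.60), against 4 of 6 members (median -1.47). With PF replicate 4 kept in the unscaled fit, *NPM2*, *OOEP*, *DAZL* and *GDF9* no longer passed, while *BMP15* did. The *GDF9* call was also lost without PF replicate 2 (DESeq2 adjusted p = 0.0849) and the *DAZL* call without PF replicate 1 (0.051).

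Of 10 other germ cell regulators that could be tested, 6 were lower in SF and none higher, with a median of -2.67. The zinc finger factor *SALL4* fell by 2.74 ± 0.56 (DESeq2 adjusted p = 6.2e-05), *POU5F1*, known from pluripotent cells and germ cells, by 3.09 ± 0.75 (0.00092), and *KIT*, the receptor of the oocyte for granulosa cell KIT ligand, by 2.60 ± 0.57 (0.00018). *KIT* was the exception in PF replicate 4, with 65.5 TPM against 28.7 to 50.0 TPM in PF replicates 1 to 3 and 1.85 to 8.85 TPM in SF. *BNC1* fell by 2.93 ± 0.79 (0.0030), a call lost with PF replicate 4 kept, and *LHX9*, another LIM-homeodomain gene, by 3.66 ± 1.10 (0.009), a call lost without PF replicate 3 (0.109) and made on at most 5.77 TPM. *FOXO3*, which holds primordial follicles dormant in mice, was at 0.16 ± 0.28 (0.74), *NR6A1* at 0.06 ± 0.45 (0.95) and *TBPL2* at -1.02 ± 1.66 (0.72).

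The helix-loop-helix members dimerize with E proteins and are held back by ID proteins, and LIM-homeodomain proteins act with LDB cofactors. Of the 8 such genes tested, none was called by DESeq2 in either direction, 0 had an unadjusted p under 0.05, and the median was 0.13. *ID1*, *ID2* and *ID3* were the most abundant, at 0.75 ± 1.00 (DESeq2 adjusted p = 0.66), 0.94 ± 1.57 (0.73) and 0.61 ± 0.57 (0.49). *ID2* held 35.6, 41.2 and 84.0 TPM in the libraries numbered below 40 and 423 to 1044 TPM in the others, and *ID1* held 47.2 to 200.2 TPM and 349 to 869 TPM. Both thus split by library number as *TAF4B* did. Without PF replicate 3 they were called higher in SF, with adjusted p from DESeq2 of 6.82e-05 for *ID2* and 0.000418 for *ID1*, and *ID3* was too (0.0226).

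The 15 other subunits of TFIID, the complex of TAF4B, were tested as well. Of these, 2 were lower, 2 higher and 11 not called, with a median of 0.12. *TAF5* fell by 1.25 ± 0.33 (DESeq2 adjusted p = 0.0022) and *TBP*, the TATA-binding protein itself, by 1.21 ± 0.36 (0.0088). *TAF2* rose by 1.27 ± 0.25 (3.1e-05) and *TAF8* by 1.18 ± 0.42 (0.031). All 4 calls were lost with PF replicate 4 kept, that of *TBP* also without SF replicate 2 (DESeq2 adjusted p = 0.0568), and that of *TAF8* also in 5 other settings. The most abundant subunits were not called, *TAF10* at -0.18 (0.76), *TAF9* at -0.51 (0.24) and *TAF7* at 0.46 (0.40). *TAF4*, the paralog of *TAF4B*, was chosen after its values were seen. It was present at 3.00, 3.06 and 4.01 TPM in PF replicates 1 to 3, 1.61 TPM in PF replicate 4 and 1.08, 1.37 and 2.85 TPM in SF, with a log2 fold change of -0.81 ± 0.64 (0.40).

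**Figure D5:**
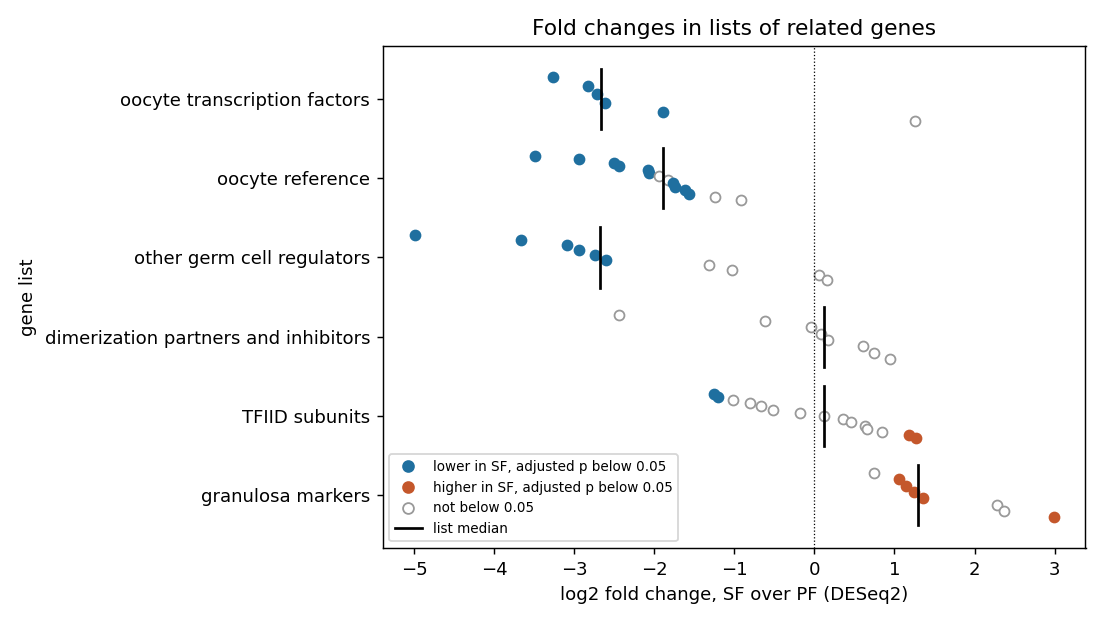
Log2 fold change of SF versus PF (DESeq2) for each tested gene of the members and the related lists, one point per gene, filled where the adjusted p was below 0.05. The members, the other oocyte genes and the germ cell regulators lie mostly below 0, with medians of -2.66, -1.89 and -2.67, while the partners and the TFIID subunits are spread around 0.

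Markers of other cell types were measured in the same fit. Of 7 stromal fibroblast markers tested, 1 was higher in SF, and of 5 smooth muscle and pericyte markers 1 was higher. None of 4 theca or 3 endothelial markers was called by DESeq2, with 3 and 1 of them at an unadjusted p under 0.05. The 0 calls of edgeR say nothing of these markers, since edgeR called no gene at all in this comparison. Of 2 immune markers tested 1 was lower, *CSF1R*, while *PTPRC* reached at most 0.83 TPM and *CD3E* at most 0.184 TPM in any library. The immune markers *CD68* and *CD14* reached at most 5.13 and 3.43 TPM, both in PF replicate 3. Of the endothelial markers, *PECAM1* and *CDH5* reached at most 0.997 and 0.0535 TPM. *VWF* reached 10.2 TPM in PF replicate 3, *TEK* 9.79 TPM in PF replicate 2 and *KDR* 3.20 TPM in PF replicate 4. Summed theca markers were 164 to 248 TPM in PF replicates 1 to 3, 1167 TPM in PF replicate 4 and 285 to 397 TPM in SF. Summed smooth muscle markers were 66.4 to 138 TPM, 994 TPM and 176 to 242 TPM in the same order. *MYH11* was the largest part of that sum in every library but PF replicate 4. There it was lowest, at 28.5 TPM, and *ACTA2* was largest, at 702 TPM. Endothelial markers summed to 6.28 to 15.5 TPM, 9.60 TPM and 1.68 to 6.19 TPM, and immune markers to 40.8 to 89.2 TPM, 8.24 TPM and 3.92 to 18.8 TPM. *CSF1R* was the largest part of the immune sum in every library, and all of it in PF replicates 1 and 2. The part of these cells in the members' levels was not tested.

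Among 10162 genes with a mean of at least 5 TPM, likeness to the mean profile of the 6 members was measured by the root mean square difference of centred log2(TPM + 1) over the 7 libraries. The 5 nearest genes were *MMAA* (0.151), *SOX15* (0.180), *PINX1* (0.183), *DIRAS2* (0.191) and *TBCD* (0.199). *MMAA*, a mitochondrial protein of cobalamin metabolism, held 53.3, 45.2 and 36.8 TPM in PF replicates 1 to 3, 9.84 TPM in PF replicate 4 and 8.03, 13.5 and 6.48 TPM in SF. *DAZL* stood at rank 291, *ZP3* at 2265 and *BMP15* at 3445. The mean profile includes *TAF4B*, and all 7 libraries differ in stage and in their level of zona transcripts, which these genes share with the members.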

How the data were processed

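RNA of 4 PF and 3 SF pools was sequenced. Groups and replicate numbers come from the sample titles. Follicles of many animals were pooled into what the study calls biological replicates, but nothing ties a library to its animals. The spread behind every p-value is therefore that between these samples, and may be technical. According to the study's methods, cDNA was amplified with a SMART-Seq kit that does not mark strand, reads were trimmed, and transcripts were quantified with Salmon against the bovine ARS-UCD1.3 transcriptome. Trim Galore and Salmon also stand, without a version, in the submitters' processing notes. Per the file headers, the authors deposited for each RefSeq transcript an estimated count, not normalized, in which reads that match several transcripts are split between them. They also deposited TPM, which the authors' tool computed from those counts and effective transcript lengths. Depth limits precision at low levels only, since the members held 27 to 9411 counts per library.

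Transcripts were matched by accession to a RefSeq gene table of the ARS-UCD2.0 assembly, used for names alone. Of 76123 transcripts, 50205 matched (66.0%), and the rest held 9.71% to 10.7% of the counts. Counts, rounded to whole numbers, and TPM were summed per gene. No pair of libraries of a group agreed within sampling noise. No gene coordinates or sequences are given.

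SF was compared with PF (replicates 1 to 3 of each) with DESeq2 1.42.0 (R 4.3.3, Wald test, default size factors), PF replicate 4 being left out as the study did, and genes were called at a Benjamini-Hochberg adjusted p below 0.05 over all 15056 genes with an adjusted p. A second fit took size factors from the summed *ZP2*, *ZP3* and *ZP4* counts. TPM ratios were compared on the log2 scale by exact two-sided permutation tests (scipy 1.17.1). Scripts were tested on simulated data. Alternatives were edgeR 4.0.16, limma 3.58.1 on log2(TPM + 1) or log2(TPM + 0.1) for genes with at least 1 TPM in 3 libraries, other scalings and reference genes, a count filter, a replicate block, the library number class as a covariate, the use of all 7 libraries, and leaving out single libraries.

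The members and the 12 lists (members, zona genes, other oocyte genes, dimerization partners and inhibitors, TFIID subunits, other germ cell regulators, and markers of granulosa, stromal, theca, endothelial, immune and smooth muscle cells) were chosen with earlier results of these data known. Named were the members and zona genes, and, for the 4 lists of oocyte genes, partners, TFIID subunits and germ cell regulators, up to 5 called genes of smallest adjusted p and up to 3 uncalled genes of highest mean TPM. The 5 genes nearest to the members' mean profile were also named, and markers of other cells where a result turns on them. *ZAR1*, *MOS* and *DDX4* were named after their values were seen. Of the listed genes, *KHDC3L* and *LDB1* matched no transcript.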

Additional observations from a re-analysis of the deposited data

Results flagged for a closer look

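The level of *TAF4B* relative to the zona genes in PF replicate 4, 14.4% of their summed TPM, stood far from the other 3 PF libraries, which held 0.225% to 2.30%. In TPM *TAF4B* itself was not set apart there, at 26.0 TPM against 28.3 TPM in PF replicate 3. The summed zona TPM below it was 181 in PF replicate 4 and 1229 to 2033 in the other PF libraries. By the same rule chance sets apart about 1 in 20 groups, and the rule could be applied to the 4 PF libraries alone. PF replicate 4, which the main comparison does not use, also held 6193 TPM of the stromal fibroblast markers summed, against 427 to 621 TPM in PF replicates 1 to 3. *DCN* among these markers went the other way, at 168 TPM against 390 to 573 TPM.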

How the results depend on the processing

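In the main comparison 2876 genes were called, 42.6% of them higher in SF. The count was 0 with edgeR (3844 genes at an unadjusted p under 0.05), 3 with limma on log2(TPM + 1), 60 with log2(TPM + 0.1), 1 without a filter, 858 with all 7 libraries, and 1887 to 3947 with a library left out, lowest without PF replicate 2 and highest without PF replicate 3. With a mean-variance trend in limma, chosen after seeing the data, it was 792, of which 29.4% were higher. Of the members, 5 were called lower in the main comparison, 0 with edgeR and with limma without trend, 4 with the trend, 3 with all 7 libraries, and 4 or 5 with a library left out. Same-numbered libraries did not pair in every case. The correlation of deviations between PF and SF was 0.243 for replicate 1, -0.0169 for replicate 2 and 0.391 for replicate 3. PF replicate 2 correlated best with SF replicate 1 (0.244). The replicate block called 4077 genes and 5 members. It also called *ZP3* (-1.87, DESeq2 adjusted p = 0.00378), *H1-8* (0.000271), *TLE6* (0.00157) and *PADI6* (0.00316) lower, and *ID2* (1.9, 0.00634) and *ID1* (1.66, 0.00289) higher, which the main comparison did not. Scaled to zona genes, 4011 genes were called, 99.1% of them higher. The count was 501 with edgeR, 368 with *ZP2* alone, 197 with *ZP4* alone, 8852 with the oocyte list, 488 with the library number class, 89 with all 7 libraries, 36 with all 7 but SF replicate 3, and 442 to 8053 with a library left out, lowest without PF replicate 2 and highest without SF replicate 1. Members called lower were 0 to 4 with a library left out, and 4 without SF replicate 3. The *SOHLH1* ratio was -1.50 with all 7 libraries (exact permutation p = 0.0286). Signs turned for *FIGLA* relative to zona genes, at 0.24 in counts and 0.22 in TPM with the oocyte list, -0.78 to 0.056 in counts and -0.78 to 0.021 in TPM with a library left out. The *FIGLA* TPM ratio spanned -1.28 to 0.22 over all alternatives. *NOBOX*, *SOHLH1*, *SOHLH2* and *LHX8* kept their sign in every alternative, with the TPM ratio nearest 0 with the oocyte list. Over the alternatives that ratio spanned -1.99 to -0.48 for *NOBOX* and -2.48 to -0.98 for *SOHLH1*. For *SOHLH2* it spanned -1.785 to -0.28, and for *LHX8* -2.01 to -0.51. *TAF4B* turned to -0.0025 with log2(TPM + 0.1) and -1.20 with the number class, and spanned -0.51 to 2.67 with a library left out. Relative to zona genes it was -1.84 in counts and -1.86 in TPM with all 7 but SF replicate 3, and -0.70 to 4.52 in TPM with a library left out. *NR6A1* was at -0.077 with limma on log2(TPM + 1), with or without filter or trend, -0.10 with log2(TPM + 0.1), -0.0026 with the block, -0.053 with the number class and -0.27 to 0.27 with a library left out. With a library left out *ZP4* spanned -1.14 to 0.049, *TAF10* -0.44 to 0.010 and *TBPL2* -1.90 to 0.34. The cause of these changes was not tested.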
